A study of Solanum lycopersicum x Solanum pennellii and Solanum lycopersicum and Solanum pennellii with 31 samples.

Results

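Small RNA (sRNA) loci that were present in M82 and in both other introgression lines, and absent or nearly absent from a single line, were collected from seedling libraries of tomato. A locus was taken as missing from one line only when it held at most 1 read in exactly one of IL1-1, IL2-5 and IL8-3 and at least 10 reads in each of the other 4 libraries, and when it lay outside chromosome 1 from 1 to 86 Mb, chromosome 2 from 44 to 54 Mb and chromosome 8 from 61 Mb to its end, the regions introgressed in these lines. Of the 219578 loci of the table, 193704 lay outside those regions and 92 met the rule. Of these, 72 were missing from IL1-1, 9 from IL2-5 and 11 from IL8-3. The members were chosen by the counts of all 5 libraries, so the counts of the members are given as a description and without a test.

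An sRNA locus is a stretch of the genome on which sequenced sRNAs pile up. In plants most such loci produce short interfering RNAs, which are cut from double-stranded precursors made by RNA polymerase IV and an RNA-dependent RNA polymerase, and which guide DNA methylation to matching sequences (RNA-directed DNA methylation, RdDM). Transposons and other repeats are their usual source, and a smaller number of loci are microRNA genes. An introgression line is an M82 plant that carries a segment of the wild relative Solanum pennellii. By its breeding it is meant to be M82 in the rest of its genome, which was not tested here.

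The libraries came from seedlings of 2 weeks. There was 1 library each of IL1-1, IL2-5 and IL8-3, which carry S. pennellii segments in Solanum lycopersicum cv. M82, and there were libraries of 2 M82 plants. Each line was sampled as a single plant, so a locus missing from a library cannot be told apart from a locus missing from the line. The counts summed to 4680913 in IL1-1, 5303281 in IL2-5, 5688499 in IL8-3, 4860695 in M82 replicate 1 and 2843012 in M82 replicate 2. The table gives no read sizes, no sequences and no annotation, and no genome of the build SL2.50 was used here, so the loci are given by their names and positions alone.

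The lines differed in how many loci they lacked. Loci with at least 10 reads in the other 4 libraries, the only ones that could have been missing, numbered 26637 for IL1-1, 26710 for IL2-5 and 26085 for IL8-3. The members made up 0.27% of them in IL1-1, 0.0337% in IL2-5 and 0.0422% in IL8-3. When the same rule was applied to the M82 libraries, 4 loci (0.0151% of 26412) were missing from M82 replicate 1 only, and 343 (0.986% of 34793) from M82 replicate 2 only, the library with the lowest total. IL1-1 thus lacked more loci than M82 replicate 1, which has a similar total, and fewer than M82 replicate 2.

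Depth enters these counts, since the rule is set in reads. After every library was scaled by its total to that of M82 replicate 2, the same rule left 45 loci missing from IL1-1 only (0.219%), 1 from IL2-5 (0.00478%) and 6 from IL8-3 (0.0296%), against 0 from M82 replicate 1 and 45 from M82 replicate 2 (0.207%). Scaling lowers the count but leaves the deeper libraries with their smaller relative counting error. On this scale the shallow M82 library lacked as many loci as IL1-1, although it comes from the same cultivar as M82 replicate 1. The number of loci missing from a line has to be read against this gap between 2 M82 plants, and with 1 library per line it has no error of its own.

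A rule with no limit on the reads in the line, chosen after seeing the data, asked instead for a CPM under 0.1 times the lowest of the other 4. It took 88 loci in IL1-1 (0.33%), 9 in IL2-5 (0.0337%) and 20 in IL8-3 (0.0767%), against 7 in M82 replicate 1 (0.0265%) and 138 in M82 replicate 2 (0.397%). Of these, 67 were members in IL1-1, 5 in IL2-5 and 11 in IL8-3, and M82 replicate 2 again had the most.

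**Figure D1:**
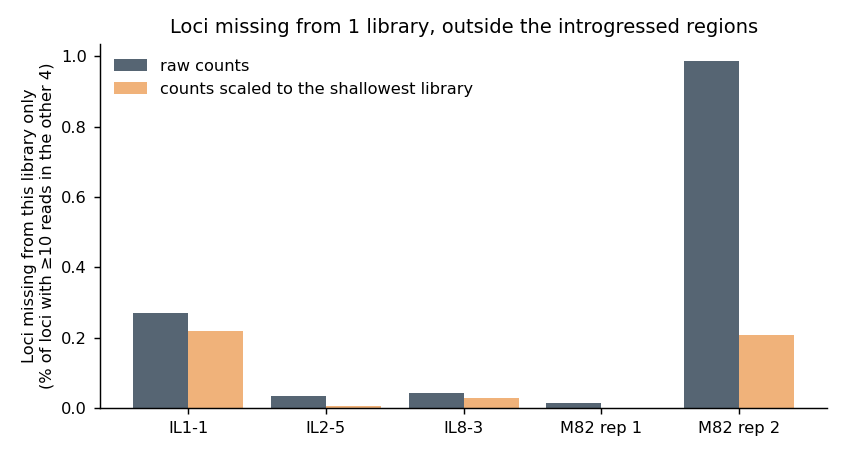
Loci missing from 1 library only, as a percentage of the loci with at least 10 reads in the other 4 libraries, for IL1-1, IL2-5, IL8-3 and the M82 replicates, from raw counts (grey bars) and from counts scaled to the shallowest library (orange bars). With raw counts IL1-1 stands at 0.27% and M82 replicate 2 highest at 0.986%, and after scaling they stand at 0.219% and 0.207%.

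The lines also differed in how the lowest counts were distributed. Among the loci with at least 10 reads in the other 4 libraries, IL1-1 held 0 reads at 40, 1 read at 32, 2 reads at 26 and 3 reads at 27. In IL2-5 the numbers climbed over the same counts, with 4 loci at 0 reads, 5 at 1, 22 at 2 and 35 at 3. In IL8-3, 8 loci held 0 reads, 3 held 1, 5 held 2 and 13 held 3. IL1-1 and IL8-3 therefore had more loci at 0 than at 1 read, while in IL2-5 the members were the low end of numbers that rose with each further read. Of all 92 members, 52 held 0 reads in their line.

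**Figure D2:**
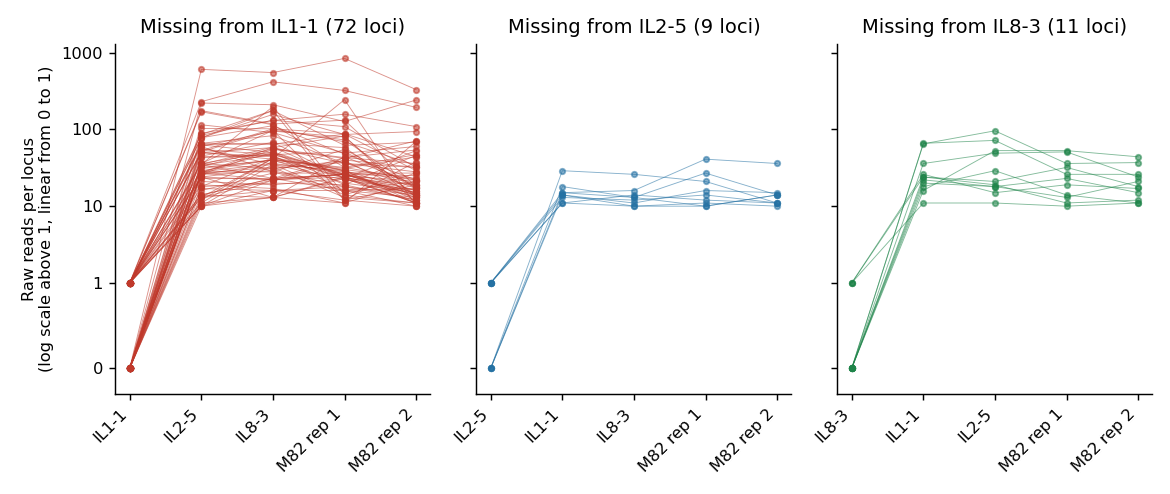
Raw reads of each of the 92 members (1 line of points per locus) in the 5 libraries, with the line from which the locus is missing at the left of each panel, then the other lines and the M82 replicates. The vertical axis is logarithmic above 1 read and linear from 0 to 1. All points at the left sit at 0 or 1 read and all others at 10 or more, as the rule set, and only the IL1-1 panel has loci above 100 reads in all 4 other libraries.

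Of the loci missing from IL1-1, 6 of 72 held at least 50 reads in every other library, and no locus missing from IL2-5 or IL8-3 did. The most abundant was Cluster_177472 (chromosome 10, 34543648 to 34543766, SL2.50), with 0 reads in IL1-1, 607 in IL2-5, 551 in IL8-3, and 843 and 331 in M82 replicates 1 and 2. With the IL1-1 count set at a floor of 3 reads, its level in IL1-1 was at least 217.8-fold lower than in M82. The other 4 libraries differed among themselves by 1.66-fold from lowest to highest in reads scaled to library size (CPM).

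Cluster_52854 (chromosome 3, 18589803 to 18589880) held 1 read in IL1-1, 230 in IL2-5, 418 in IL8-3, and 322 and 194 in the M82 replicates. The ratio of M82 to IL1-1 was 287.2, with a 95% exact interval from 51.32 to 11366 that covers counting error only. At Cluster_160904 (chromosome 9, 43052306 to 43052467) IL1-1 held 0 reads, IL2-5 221 and IL8-3 210, and the M82 replicates held 127 and 242. This is at least 68.46-fold lower in IL1-1 than in M82 at the floor of 3 reads. Cluster_92444 (chromosome 5, 24216574 to 24216674) held 1 read in IL1-1, 78 in IL2-5, 157 in IL8-3, and 86 and 94 in the M82 replicates, a ratio of M82 to IL1-1 of 100.2 (interval 17.76 to 3979). At these 4 loci no other library held fewer than 78 reads.

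A further locus of this kind was Cluster_26150 (chromosome 1, 94279153 to 94279244), with 0 reads in IL1-1, 78 in IL2-5, 176 in IL8-3, and 62 and 68 in the M82 replicates. It lies on the chromosome that carries the introgression of IL1-1, 8.279 Mb beyond the end of the excluded region. The other IL1-1 member beyond that end was Cluster_26374, 8.677 Mb beyond it, with 0 reads in IL1-1, 28 in IL2-5, 28 in IL8-3, and 55 and 17 in the M82 replicates. The span of both, 397.9 kb, held 39 loci that could have been missing, and these were the only ones that were.

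A single block was found, at the start of chromosome 1 in IL1-1, next to the excluded region. The start of that region at 1 Mb is a limit of the rule and not a measured end of the introgressed segment. Members of one line were linked along a chromosome when they were no more than 1 Mb apart, and a block was defined as at least 5 linked members. Of the 92 members, 15 fell into that block, 56 were single loci with no other member of their line within 1 Mb, 17 fell into 8 groups of 2 or 3, all of them missing from IL1-1, and 4 lay on unplaced sequence, which has no map order. The 9 members of IL2-5 were spread over 8 chromosomes and the 11 of IL8-3 over 9, and all of both lines were single. IL1-1 members occurred on all 12 chromosomes, from 1 on chromosomes 8 and 11 to 11 on chromosome 10 and 17 on chromosome 1, where 2204 and 1387 loci could have been missing.

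The block ran from 303577 to 907793 on chromosome 1 (604.2 kb) and ended 92.21 kb before the excluded region of IL1-1, with no locus that could have been missing in between. Its 15 members were 21.4% of the 70 loci in the span that could have been missing. A further 33 such loci lay nearer to the chromosome end. None of them was a member, which follows from the block starting at its first member. Of the 15, 6 held 0 reads in IL1-1 and 9 held 1, and they were 34 to 284 bp long, with a median of 176 bp.

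Cluster_4117 (303577 to 303677) was the first of the block, with 0 reads in IL1-1, 32 in IL2-5, 40 in IL8-3, and 30 and 23 in the M82 replicates. Cluster_4160 (370572 to 370821) had the highest minimum over the other libraries, with 1 read in IL1-1, 89 in IL2-5, 131 in IL8-3, and 158 and 109 in the M82 replicates, a ratio of M82 to IL1-1 of 148.6 (95% exact interval 26.45 to 5892). Cluster_4136 (332792 to 332883) held 0 reads in IL1-1, 27 in IL2-5, 22 in IL8-3, and 40 and 32 in the M82 replicates. The last, Cluster_4531 (907618 to 907793), held 1 read in IL1-1, 66 in IL2-5, 83 in IL8-3, and 36 and 28 in the M82 replicates.

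Most other loci in the span were also lower in IL1-1 than in M82. The 93 non-member loci in its span with a mean of at least 10 reads over the 5 libraries had a median log2 ratio to the M82 mean, on CPM with a pseudocount of 0.5, of -1.30 in IL1-1 (quartiles -2.35 and -0.31). In the same loci the median was 0.15 in IL2-5 and 0.14 in IL8-3. A ratio below -1 was found at 55 of them (59.1%) in IL1-1, against 3 in IL2-5 and 5 in IL8-3. The 56 loci between the chromosome end and the block had a median of -0.07 in IL1-1. The 2 loci between the block and the excluded region had a median of -1.66. Inside that region the loci that were not missing had a median of -1.275 in IL1-1. Whether the block is part of the introgressed segment was not tested.

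The same rule was then applied inside the introgressed regions. In its own region, IL1-1 lacked 383 of 2122 loci (18%), IL2-5 29 of 1057 (2.74%) and IL8-3 59 of 579 (10.2%). There the line carries S. pennellii DNA, while the reads were aligned to the genome of cultivar Heinz. A locus without sRNAs cannot be told apart there from a locus whose reads did not align. The same limit applies to all levels given for these regions. Linked in the same way, 346 of the 383 loci of IL1-1, 26 of the 29 of IL2-5 and all 59 of IL8-3 fell into blocks of 5 or more. The largest held 225, 21 and 59 loci in that order of lines. Blocks at a link of 1 Mb, and the distances that follow, depend on how densely missing loci lie. They therefore largely restate the higher shares inside the regions. The median distance to the nearest other missing locus was 16.44 kb in the region of IL1-1 and 1993 kb among its 66 placed members outside that shared a chromosome with another. Without the block it was 4654 kb (51 members), and within the block 19.33 kb. For IL8-3 the medians were 19.6 kb inside and 21876 kb outside (4 members), and for IL2-5 120.3 kb inside and 21570 kb outside (2 members). Of the 53 placed IL1-1 members outside the block, 3 (5.66%) were followed on the chromosome by another member as the next locus that could have been missing, beside a share of these members of 0.214% over all such loci. No member of IL2-5 or IL8-3 was. Inside the own regions this held for 77 of 383 missing loci in IL1-1 (20.1%), 0 of 29 in IL2-5 and 6 of 59 in IL8-3 (10.2%).

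**Figure D3:**
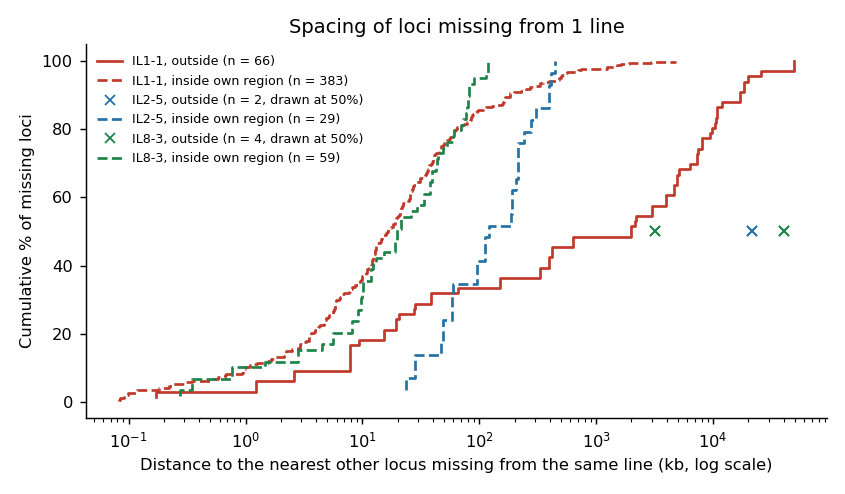
Cumulative percentage of missing loci against the distance to the nearest other locus missing from the same line (kb, logarithmic axis), for members outside the introgressed regions (solid lines) and for loci missing inside each line's own region (dashed lines). The few IL2-5 and IL8-3 members with another member on their chromosome are crosses at an arbitrary height. The median for IL1-1 is 1993 kb outside, the block included, and 16.44 kb inside.

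The non-member loci around the members outside the block were measured in the same way. Neighbours that were members themselves were left out, so these medians do not count further missing loci nearby. Within 50 kb of these IL1-1 members lay 575 non-member loci with a mean of at least 10 reads over the 5 libraries. Their median log2 ratio of IL1-1 to the M82 mean was -0.03 (quartiles -0.44 and 0.41), against 0.00 (-0.43 and 0.43) over all such loci outside the regions and the block. The same loci had medians of -0.05 in IL2-5 and 0.02 in IL8-3. Around the IL2-5 members, 104 loci had a median of -0.07 in IL2-5, against -0.00 over all loci, and around the IL8-3 members 179 loci had a median of -0.10 in IL8-3, against -0.01 over all loci. In the regions of their own introgressions, the loci that were not missing had medians of -1.27 in IL1-1 (3046 loci), -1.18 in IL2-5 (1631) and -0.98 in IL8-3 (866).

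The share of neighbours below a log2 ratio of -1 was also close to that of all loci. It was 7.83% in IL1-1 (45 of 575), against a background of 7.14% of 45621 loci. In IL2-5 it was 11.5% (12 of 104), against 9.02%, and in IL8-3 10.6% (19 of 179), against 8.34%. The loci next to a member on either side, among those that could have been missing, fell below -1 more often, at 14.1% of 99 in IL1-1, 22.2% of 18 in IL2-5 and 13.6% of 22 in IL8-3, against 7.82%, 10.3% and 9.35% of all such loci on placed chromosomes. These are 14, 4 and 3 loci, and they were not tested.

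**Figure D4:**
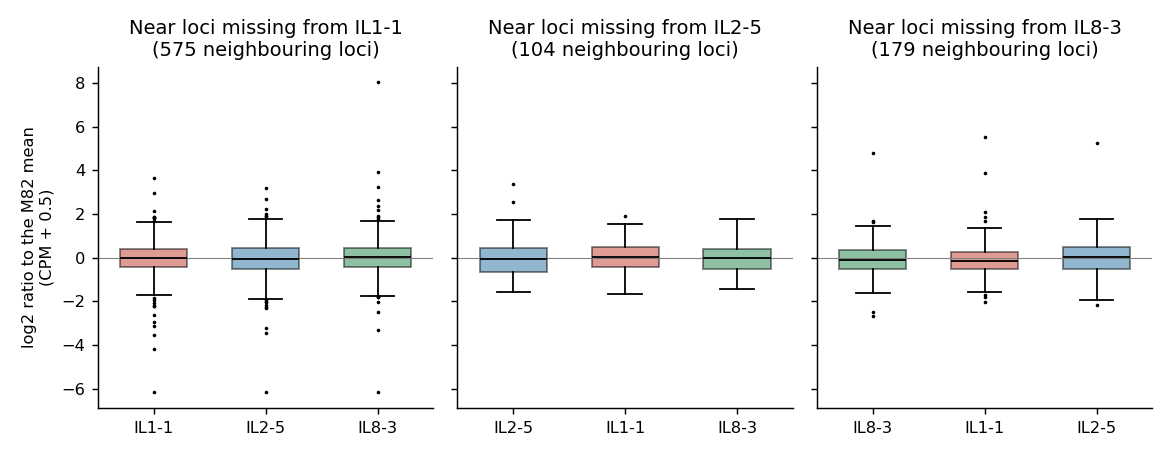
Box plots of the log2 ratio to the M82 mean (CPM with a pseudocount of 0.5) of non-member loci within 50 kb of the loci missing from IL1-1 (without the block), IL2-5 and IL8-3 (1 panel each), in the line that lacks the members (left box) and in the other lines. Boxes span the quartiles with the median as a line, whiskers reach 1.5 times that span, and dots are loci beyond them. The medians of the left boxes are -0.03, -0.07 and -0.10.

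Windows of 1 Mb were used to look for blocks that the members might have missed. Outside the regions and apart from the window with the block, 533 windows held at least 10 non-member loci with a mean of at least 10 reads. The median log2 ratio to M82 was under -0.5 in 3 of them in IL1-1, 11 in IL2-5 and 4 in IL8-3, with lowest values of -0.65, -0.89 and -0.62. Within the own regions this was so in 50 of 61 windows for IL1-1, 9 of 10 for IL2-5 and 4 of 5 for IL8-3, with lowest values of -2.22, -1.51 and -1.69. The 3 lowest windows outside in each line held 11 to 26 loci and none of the members. Some low windows recurred between lines. Chromosome 11 from 35 to 36 Mb was at -0.65 in IL1-1 and -0.58 in IL8-3, and chromosome 11 from 43 to 44 Mb was at -0.53 in IL1-1 and -0.75 in IL2-5. These lines share the M82 libraries as their denominator.

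Among the 8 groups of IL1-1, 3 spanned less than 10 kb from the first to the last member. These spans do not measure how far low levels reach, since loci under 10 reads in another library could not be members. The group on chromosome 2 ran over 8.48 kb (19051658 to 19060139), that on chromosome 10 over 8.67 kb (36682350 to 36691020) and that on chromosome 12 over 8.20 kb (42895425 to 42903628). The other 5 groups were pairs that spanned 151.7 to 629.6 kb and held from 6 to 39 loci that could have been missing, the members included. With 1 Mb as the link, such pairs are far wider than the short groups.

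On chromosome 2, Cluster_30147 held 0 reads in IL1-1, 65 in IL2-5, 66 in IL8-3, and 58 and 14 in the M82 replicates. Its partner Cluster_30149 held 0 reads in IL1-1, 50 in IL2-5, 44 in IL8-3, and 23 and 19 in the M82 replicates. The loci beside them were low in IL1-1 too. Cluster_30148, between them, held 0 reads in IL1-1, 20 in IL2-5, 18 in IL8-3, and 14 and 3 in the M82 replicates, and missed the rule through its count in M82 replicate 2. Cluster_30146, just before the first, held 25 reads in IL1-1, 467 in IL2-5, 696 in IL8-3, and 439 and 162 in the M82 replicates. Every locus of the table within 10 kb was thus lowest in IL1-1.

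On chromosome 10 the group had 3 members. Cluster_177693 held 0 reads in IL1-1, 60 in IL2-5, 28 in IL8-3, and 16 and 10 in the M82 replicates. Cluster_177696 held 0 reads in IL1-1, 57 in IL2-5, 35 in IL8-3, and 14 and 11 in the M82 replicates, and Cluster_177697, 0.171 kb further, held 1, 63, 50, 25 and 21 in the same order. Here both other lines stood above M82, so that M82 lay between IL1-1 and them. Cluster_177695, a locus of 1208 bp between the members, held 6 reads in IL1-1, 425 in IL2-5, 369 in IL8-3, and 193 and 81 in the M82 replicates. It was low in IL1-1 by a similar margin and was kept out by its 6 reads. Beyond the last member, Cluster_177699 held 0, 6, 4, 3 and 2 reads in the same order of libraries, and Cluster_177700 held 0, 8, 9, 3 and 3. Before the first member, Cluster_177692 held 2, 3, 0, 0 and 1, and was not lowest in IL1-1.

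On chromosome 12, Cluster_213038 held 1 read in IL1-1, 50 in IL2-5, 41 in IL8-3, and 31 and 44 in the M82 replicates. Cluster_213041 held 0 reads in IL1-1, 28 in IL2-5, 50 in IL8-3, and 19 and 46 in the M82 replicates. The loci around this pair were not all low in IL1-1. Cluster_213039, between them, held 4 reads in IL1-1, 5 in IL2-5, 8 in IL8-3, and 22 and 9 in the M82 replicates, and Cluster_213044, within 10 kb of the pair, held 36, 28, 38, 34 and 39 in the same order.

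Around a few members the neighbours were low. The median log2 ratio of the neighbours within 50 kb was under -1 at 7 of the 54 IL1-1 members outside the block that had any. It was so at none of the IL2-5 or IL8-3 members. The share of other loci with such neighbours was not computed, so this number has no background. The median was -4.18 around the chromosome 10 group, from 1 locus that its 3 members share. Around the chromosome 2 group it was -2.89, from 2 loci that both members share. At the members of the chromosome 12 group it was -0.35 and -0.44, from 3 and 4 loci. The 7 members are thus fewer separate neighbourhoods. The remaining members with such neighbours were Cluster_1274 on unplaced sequence, at -2.61 from 3 loci, and Cluster_209238 on chromosome 12, at -1.63 from 1 locus. With so few neighbours, these medians are the values of single loci in effect.

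The other 31 single IL1-1 loci that are not named by the rule held between 10 and 245 reads in the other libraries, with a median of 26, and 17 of them held 0 reads in IL1-1 and 14 held 1. The top of that range came from Cluster_73365 (chromosome 4, 26630506 to 26630589), which was singled out after its values were seen. It held 1 read in IL1-1, 13 in IL2-5, 42 in IL8-3, and 245 and 10 in the M82 replicates. Its other 4 libraries differed by 16.6-fold in CPM, the M82 replicates lying far apart from each other. Over all IL1-1 members the median ratio of the highest to the lowest of the other 4 libraries was 2.49, against 1.98 over all loci that could have been missing. It was 2.30 against 1.99 for IL2-5 and 2.35 against 2.00 for IL8-3.

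The 9 loci missing from IL2-5 were close to the floor of 10 reads in the other libraries. Their lowest count outside IL2-5 was at most 15, with a median of 11, against a median of 21 over all loci that could have been missing. Cluster_107603 (chromosome 6, 33691383 to 33691432) held 0 reads in IL2-5, 15 in IL1-1, 16 in IL8-3, and 41 and 36 in the M82 replicates, where both other lines also stood below both M82 libraries. Cluster_125744 (chromosome 7, 49319000 to 49319471), the longest with 472 bp, held 0 reads in IL2-5, 18 in IL1-1, 13 in IL8-3, and 27 and 14 in the M82 replicates. Cluster_174341 (chromosome 10, 5527966 to 5528229) held 0 reads in IL2-5, 29 in IL1-1, 26 in IL8-3, and 21 and 11 in the M82 replicates. The first of these was at least 14.97-fold lower in IL2-5 than in M82 at the floor of 3 reads, the second at least 7.97-fold and the last at least 6.22-fold.

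Cluster_33352 (chromosome 2, 33467728 to 33467880) was the only other IL2-5 member at 0 reads, with 14 reads in IL1-1, 11 in IL8-3, and 16 and 15 in the M82 replicates. It is the one member on the chromosome of the IL2-5 introgression and lies 10.53 Mb before the excluded region. Cluster_143350 (chromosome 8, 48451847 to 48451960) held 1 read in IL2-5, 13 in IL1-1, 12 in IL8-3, and 14 and 11 in the M82 replicates, a ratio of M82 to IL2-5 of 14.58 (95% exact interval 2.388 to 598.8). The shortest, Cluster_141280 (37 bp, also on chromosome 8), held 1 read in IL2-5, 14 in IL1-1, 10 in IL8-3, and 11 and 10 in the M82 replicates. Cluster_194301, on chromosome 11, held 1, 15, 13, 10 and 14 reads in the same order of libraries. The last pair, Cluster_71318 on chromosome 4 and Cluster_204031 on chromosome 12, likewise held 1 read in IL2-5 and from 10 to 14 reads in each other library. For the 5 members at 1 read the lower limits of the ratios of M82 to IL2-5 ran from 1.97 to 2.388, so that the size of these differences is known within wide limits only.

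The 11 loci missing from IL8-3 had a median lowest count of 15 in the other libraries and at most 36, beside a median of 16 for IL1-1. Cluster_128501 (chromosome 7, 57647343 to 57647446) held 0 reads in IL8-3, 65 in IL1-1, 96 in IL2-5, and 36 and 37 in the M82 replicates, at least 17.5-fold lower in IL8-3 than in M82 at the floor of 3 reads. Cluster_176663 (chromosome 10, 26663450 to 26663494) held 0 reads in IL8-3, 66 in IL1-1, 72 in IL2-5, and 26 and 26 in the M82 replicates. At both loci the other lines stood above both M82 libraries. Cluster_22166 (chromosome 1, 86993318 to 86993454) held 0 reads in IL8-3, 36 in IL1-1, 49 in IL2-5, and 51 and 24 in the M82 replicates. Cluster_166717 (chromosome 9, 66280550 to 66280759) held 0 reads in IL8-3, 16 in IL1-1, 53 in IL2-5, and 53 and 44 in the M82 replicates, at least 23.25-fold lower than in M82 at the floor.

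Cluster_82316 (chromosome 4, 62775677 to 62775954), the longest of the IL8-3 members with 278 bp, held 1 read in IL8-3, 24 in IL1-1, 21 in IL2-5, and 32 and 18 in the M82 replicates. The ratio of M82 to IL8-3 was 35.96 (95% exact interval 6.165 to 1448). Cluster_193692 on chromosome 11 held 1 read in IL8-3, 26 in IL1-1, 15 in IL2-5, and 19 and 17 in the M82 replicates, and Cluster_159973 on chromosome 9 held 1, 11, 11, 10 and 11 in the same order, just at the limit of the rule. Cluster_149197 (chromosome 8, 59722353 to 59722406) held 0 reads in IL8-3, 20 in IL1-1, 18 in IL2-5, and 23 and 15 in the M82 replicates. It is the member nearest to the introgression of its own line, 1.278 Mb before the excluded region, and the 26 neighbours within 50 kb had a median log2 ratio of -0.04 in IL8-3. The first locus missing from IL8-3 inside the region starts at 62121620. The remaining 3, Cluster_23956, Cluster_46276 and Cluster_116376 (36 bp, the shortest), held 0 reads in IL8-3 and from 11 to 29 in every other library.

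Just outside the rule stood loci with as large a difference. Cluster_180183 (chromosome 10, 51308286 to 51308368) held 2 reads in IL2-5, 548 in IL1-1, 1036 in IL8-3, and 430 and 220 in the M82 replicates, more in the other libraries than any IL2-5 member. For IL1-1 the loci just outside were Cluster_2127 on unplaced sequence, with 2 reads in IL1-1, 39 in IL2-5, 65 in IL8-3, and 47 and 65 in the M82 replicates, and Cluster_142699 on chromosome 8, with 2, 69, 52, 58 and 26 in the same order. For IL8-3, Cluster_136584 on chromosome 8 held 2 reads in IL8-3, 91 in IL1-1, 13 in IL2-5, and 110 and 38 in the M82 replicates. With 9 in place of 10 reads in the lowest other library, a further 7 loci would have counted for IL1-1, 6 for IL2-5 and 1 for IL8-3, and with exactly 10 reads there 6, 3 and 1 members did.

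The members were shorter than the loci they were drawn from. Length was not used by the rule, but the loci were defined from the seedling reads that also gave the counts. Length and counts are therefore not independent, and the lengths are a description. The median was 145 bp in IL1-1 (quartiles 99 and 212.2; 144 bp without the block), 98 bp in IL2-5 (50 and 153) and 104 bp in IL8-3 (49.5 and 153.5). The loci that could have been missing had medians of 256 bp (161 and 386), 256 bp (161 and 386) and 257 bp (162 and 388) for the same lines. Loci under 100 bp made up 25% of the IL1-1 members (18 of 72), 55.6% of the IL2-5 members (5 of 9) and 45.5% of the IL8-3 members (5 of 11), against 10.7%, 10.7% and 10.5% of all loci that could have been missing. Only 1 member, Cluster_30147 with 512 bp, reached 500 bp, against 13.1% of the loci of the IL1-1 background. The IL2-5 value rests on 9 loci: it was 208.5 bp for the 4 of them at 0 reads, and the 1 locus left after scaling to the shallowest library was 264 bp long. The shortest of all was Cluster_52608 on chromosome 3 with 27 bp, which held 1 read in IL1-1, 17 in IL2-5, 16 in IL8-3, and 16 and 21 in the M82 replicates.

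Level and length rose together among the loci that could have been missing, and what links them was not tested. The members were of lower level than the background, so the lengths were set side by side within a level. Where the lowest of the other 4 counts was 10 to 19, the median length was 150 bp for the 47 IL1-1 members, against 236 bp for 12065 loci. Where it was 20 to 49, it was 144 bp for 19 members, against 267 bp for 8829 loci. At 50 or more it was 110 bp for 6 members, against 291 bp for 5743 loci. For IL2-5 and IL8-3, members of 10 to 19 reads had medians of 98 bp (9 members) and 100.5 bp (8 members), against 235 and 237 bp. The members were thus shorter in each level class that held any, and no test over loci was made. The share of loci that were missing fell with the level, as 0.390%, 0.215% and 0.104% over the 3 classes in IL1-1. The rule itself used this level, and its fixed limit of 1 read is easier to meet at a low level. The fall is therefore given as a description only.

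**Figure D5:**
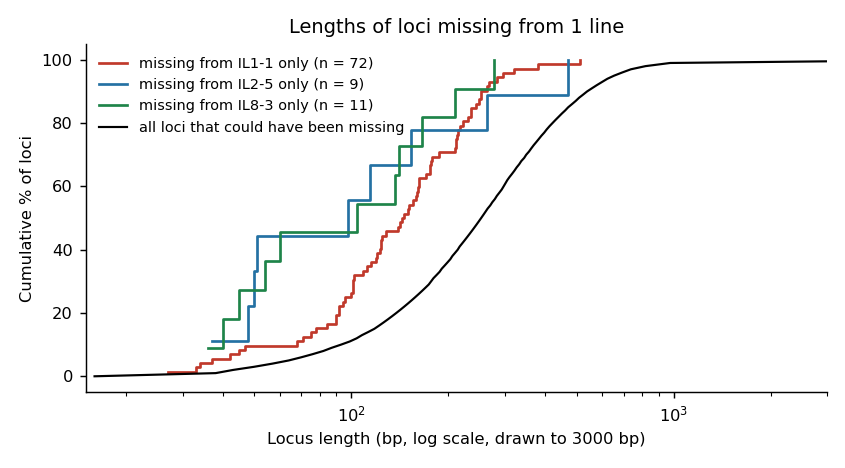
Cumulative percentage of loci against locus length (bp, logarithmic axis) for loci missing from IL1-1, IL2-5 and IL8-3 only and for all loci that could have been missing from any line (black). The curves of all 3 lines lie left of the black curve over most of their range, with medians of 145, 98 and 104 bp against 253 bp.

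Along the chromosomes the members outside the block lay further from the ends than the background. More than 10 Mb from both ends of the chromosome, as far as the table reaches, lay 58.5% of these IL1-1 members on placed chromosomes (31 of 53; 45.6% of 68 with the block), 66.7% of the IL2-5 members (6 of 9) and 45.5% of the IL8-3 members (5 of 11), against 31.6%, 31.8% and 31.5% of the placed loci that could have been missing. The median distance to the nearer end was 7.68 Mb for all placed IL1-1 members, against 5.87 Mb, and 16.1 Mb for IL2-5 members, against 5.93 Mb. For IL8-3 members it was 8.30 Mb, against 5.87 Mb. The limit of 10 Mb was chosen after the positions were seen, and the difference was not tested.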

How the data were processed

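Counts of reads per sRNA locus were used as deposited. Per the study's methods, ShortStack with its default settings aligned the seedling reads to SL2.50 (cultivar Heinz) and defined the loci, and the authors deposited the raw count of each locus without normalization. The tables of H06 reads in leaves, flowers and pollen were not used here.

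Members were found on raw counts. CPM used library totals with TMM factors of edgeR 4.0.16 in R 4.3.3 (0.904 to 1.12), computed on 62065 loci kept by filterByExpr. Size factors of DESeq2 1.42.0 were an alternative. No model was fitted and no p-value computed, because each line has 1 library and the rule used all libraries. Ratios with a read in the line have 95% exact intervals (scipy 1.17.1), and a count of 0 was set to 3 reads per library. Neither covers more than counting error, because each line has 1 library. PCR copies of 1 molecule may be counted as separate reads, so the counting error itself may be too small. The folds at the floor leave out the counting error of M82. The code that finds and links members was checked on simulated counts with planted loci set to 0 reads. This checks the code only and cannot show how many members are false.

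Members, lists and alternatives were chosen with earlier results of these data known. Named loci followed a rule: per line, the 4 single loci and the 4 in blocks with the highest minimum over the other libraries, the first and last of a block, the longest and the shortest member, up to 2 members at 1 read and up to 2 loci just outside the limits. Loci of groups, of own chromosomes and with low neighbours, the remaining members of IL2-5 and IL8-3, and Cluster_73365 were chosen after their values were seen.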

Additional observations from a re-analysis of the deposited data

How the results depend on the processing

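The number of members depended on the limits of the rule. With 0 reads required in the line it was 40 for IL1-1 and 4 for IL2-5, and with up to 3 reads allowed it was 125 for IL1-1, 66 for IL2-5 and 29 for IL8-3. With at least 5 reads in the others it was 270 in IL1-1, 202 in IL2-5 and 83 in IL8-3, and with at least 20 it was 25, 0 and 3. Scaled to the shallowest library it was 45, 1 and 6 by totals, and 44, 1 and 7 by TMM factors. With a scaled level under 0.1 times the lowest other library, chosen after seeing the data, IL8-3 had 20. With single libraries left out of the requirement, the number ran from 75 to 141 for IL1-1, from 14 to 28 for IL2-5 and from 15 to 27 for IL8-3. The highest values were without M82 replicate 2 for IL1-1, without IL8-3 for IL2-5 and without IL2-5 for IL8-3. IL2-5 also had 14 without M82 replicate 1, 23 without M82 replicate 2 and 26 without IL1-1. IL1-1 lacked the most loci of the 3 lines under each of these settings.

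The block rested on where the chromosome 1 region begins. With the region widened by 2 Mb, or taken from the start of the chromosome (chosen after seeing the data), no IL1-1 member was in a block. IL1-1 then had 54 and 57 members, in that order. IL1-1 had 6 members in blocks with 0 reads required, 6 with at least 20 reads in the others, 29 with up to 3 reads allowed and 37 with at least 5 in the others. With single libraries left out it had 15 to 25, the most without M82 replicate 2. IL2-5 had 6 in 1 block with at least 5 reads in the others. The further blocks of these looser rules held 206 to 326 loci that could have been missing, and their other loci had median log2 ratios from -0.08 to 0.01. The median inside blocks of IL1-1 was therefore -0.16 with up to 3 reads allowed and -0.0864 with at least 5 in the others, against -1.30 as reported, because those blocks are pooled with it, and it ran from -1.44 to -1.11 under the other 15 alternatives. Levels within 50 kb of the other members were added after seeing the data. Total counts in place of TMM factors moved the median over all loci to -0.09 in IL1-1 and -0.20 in IL2-5, and that of the neighbours to -0.13 and -0.25.

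Median lengths were at most 152.5 bp for IL1-1 and 153.5 bp for IL8-3 in each alternative. That of IL2-5, 98 bp, was 208.5 bp with 0 reads required (4 loci) and 264 bp after either scaling (1 locus), the last above the background median of 256 bp.

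No paired analysis was possible because each line has 1 library and the M82 replicate numbers pair with nothing.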

Other observations

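Loci of the opposite kind, with at least 10 reads in a single library and at most 1 in each of the other 4, were counted outside the introgressed regions. Among the 193704 loci there, 155 were of this kind in IL1-1, 80 in IL2-5 and 70 in IL8-3, against 36 in M82 replicate 1 and 21 in M82 replicate 2. These numbers rest on raw reads and were not scaled for depth, and M82 replicate 2 has the lowest total. The differences were not tested. Of the members on placed chromosomes, 5 had such a locus of the same line within 50 kb, all of them in the chromosome 1 block of IL1-1. The share of other loci with such a neighbour is not given, so this number has no background.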
